A study of Homo sapiens with 6 samples.

Results

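A set of 10 steroid-responsive genes was followed in T47D cells: FKBP5, TSC22D3, ZBTB16, SGK1, SGK3, TMPRSS2, STEAP4, FAM105A, TAT and KLK3. They were listed by name, as genes that glucocorticoids, progestins or androgens are known to regulate. Earlier results of these data were known when they were chosen. Of the 10 genes, 9 carry the same symbol in the deposited table of 58735 genes, and FAM105A is listed there as OTULINL, its current symbol in RefSeq. T47D is a long-established luminal breast cancer cell line known for its estrogen and progesterone receptors. The series title names fine particulate air pollution (PM2.5), and the design sets 3 control libraries (titled CK) against 3 libraries of treated cells (titled CQ). The treatment is named only in an RNA extraction text that all 6 samples share, which places extraction after 48 h of PM2.5. The second group is called exposed here on that ground. No label or file used here gives the dose, the particle source or the steroid content of the medium, and no sample is described as treated with a steroid hormone.

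The glucocorticoid (NR3C1), mineralocorticoid (NR3C2) and progesterone (PGR) receptors are hormone-activated transcription factors of one family. They are held ready for hormone by the HSP90 chaperone machinery and recognise closely related DNA elements, so a target such as FKBP5 can respond to any of them, depending on which receptor a cell contains. In breast epithelium they are known for control of growth, differentiation, ion transport and inflammatory signalling. Many of their targets also respond to other signals, stress among them.

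Deposited counts per library summed to between 30970218 and 36878525. Levels are given as CPM, the count of a gene scaled to a common library size with TMM factors (0.948 to 1.04). Errors are SD over 3 libraries, and a gene passed at an adjusted p under 0.05 in edgeR's quasi-likelihood test, adjusted over all 17337 genes tested. The design text calls the replicates biological without naming separate cultures. The p-values set group differences against the spread between these samples, and whether that includes the spread between separate cultures is not known. Luminal markers were high in all 6 libraries: EPCAM was at 169 ± 11.6 CPM in controls and 172 ± 1.54 in exposed cells, and GATA3 at 614 ± 20.4 and 630 ± 17.5 (n = 3 per group). Of the 8 luminal markers, 0 were called higher and 5 lower: the keratins KRT8, KRT18 and KRT19, ESR1 and FOXA1. Over all tested genes, 21.8% were called higher and 22.1% lower. ESR1, which encodes the estrogen receptor, fell from 167 ± 12.2 to 67.1 ± 3.45 CPM, a log2 fold change of -1.31 ± 0.08 (SE; edgeR adjusted p = 6.7e-15), and FOXA1 from 319 ± 13.3 to 264 ± 6.18 CPM (n = 3 per group). The summed level of the 8 markers ran from 18330 to 20360 CPM in controls and from 7805 to 9853 in exposed cells. KRT8 and KRT19 make up most of that sum. Any part of this shift of luminal markers in the results below was not tested. Bulk RNA cannot tell fewer cells with a transcript from less transcript per cell.

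Of the 10 genes, 7 had enough counts to be tested. TSC22D3 and TMPRSS2 rose, while FKBP5, SGK3 and ZBTB16 fell. STEAP4 and OTULINL did not pass, SGK1 and TAT had too few counts for a test, and KLK3 had none. The 2 that rose and the 3 that fell stand beside 21.8% of all tested genes called higher, 22.1% called lower and 43.9% called in either direction. The median log2 fold change of the 7 was -0.55, beside -0.02 over all tested genes. The CPM ranges of the groups did not overlap in 6 of the 7, beside 51.9% of all tested genes. STEAP4, which entered the test through its control libraries, is among the 7 behind that median and among the 6 without overlap.

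**Figure D1:**
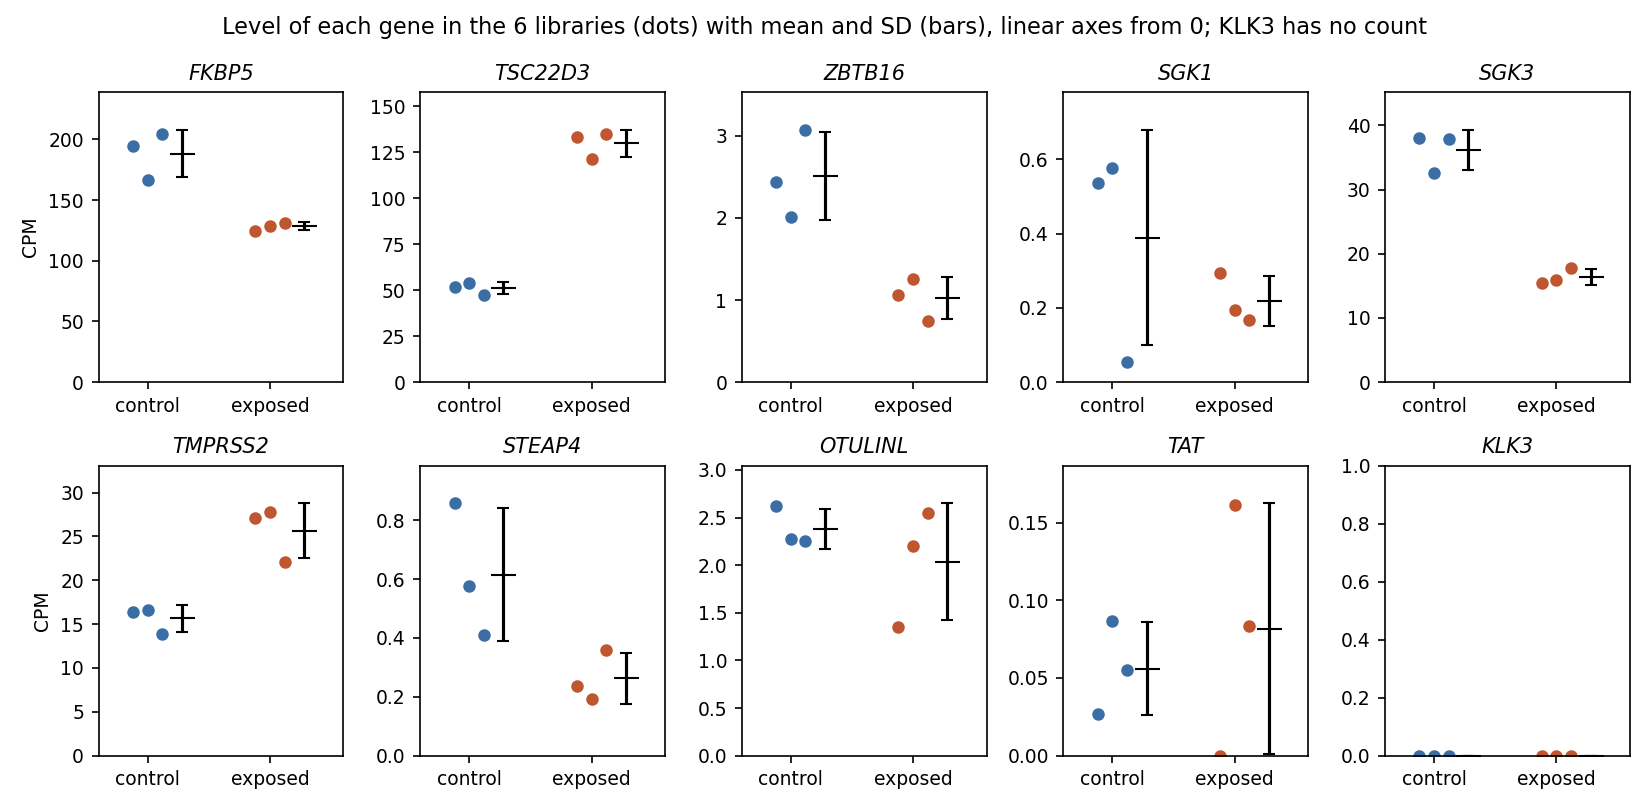
Level of each of the 10 genes in CPM (linear axes that start at 0), with control libraries in blue, exposed libraries in orange, and the mean with SD beside each group of 3. TSC22D3 sits between 47.5 and 54.0 CPM in controls and between 121 and 135 in exposed cells, whereas FKBP5, ZBTB16 and SGK3 are lower in every exposed library than in any control, and SGK1 shows 1 control library near 0.

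TSC22D3 encodes GILZ, a leucine zipper protein through which glucocorticoids dampen inflammatory signalling. Its gene (ENSG00000157514) lies on chromosome X from 107713221 to 107777342, minus strand, in GRCh38. Control replicates 1 to 3 had 51.6, 54.0 and 47.5 CPM, and exposed replicates 1 to 3 had 133, 121 and 135. Each exposed library held more than double the level of any control. The means were 51.0 ± 3.25 and 130 ± 7.31 CPM (n = 3 per group), a log2 fold change of 1.35 ± 0.08 (SE; edgeR adjusted p = 5.1e-15). In absolute size this exceeded the log2 fold change of 94.7% of tested genes.

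FKBP5 encodes FKBP51, a co-chaperone that binds HSP90 in receptor complexes and lowers the hormone affinity of the glucocorticoid receptor, which in turn induces it. The gene (ENSG00000096060) spans 35573585 to 35728583 on chromosome 6, minus strand. Controls had 194, 166 and 204 CPM and exposed libraries 125, 129 and 131. The groups did not overlap, and the exposed libraries lay closer together than the controls. The means of 188 ± 19.6 and 128 ± 3.37 CPM (n = 3 per group) differ by a log2 fold change of -0.55 ± 0.08 (SE; edgeR adjusted p = 7.3e-07), 1.47-fold lower in exposed cells.

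TSC22D3 and FKBP5 are both standard readouts of glucocorticoid and progestin activity, and per base of gene length they exchanged places. In CPM they overlapped in exposed cells, with TSC22D3 at 133, 121 and 135 and FKBP5 at 125, 129 and 131. The exchange thus rests on the gene lengths of the deposited table, 4766 bases for TSC22D3 and 10628 for FKBP5. These need not be the lengths of the transcripts present. Scaled for gene length, the ratio of TSC22D3 to FKBP5 was 0.592, 0.724 and 0.519 in control replicates 1 to 3 and 2.38, 2.10 and 2.28 in the exposed ones. This ratio is taken within a library and needs no scaling between libraries. Its log2 value was 1.89 higher in exposed cells (-0.72 ± 0.24 against 1.17 ± 0.09, n = 3 per group). An exact two-sided permutation test gave p = 0.10, the smallest that 3 against 3 allows, and the opposite directions of the pair were known when the ratio was chosen.

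RefSeq's promoter table (GRCh38.p14) held 12 windows, from 250 bases before a transcript start to 50 after it, for 6 of the 10 genes: TSC22D3, SGK1, FKBP5, OTULINL, STEAP4 and KLK3. ZBTB16, SGK3, TMPRSS2 and TAT had none. The search covered 3 motifs on both strands, namely the palindromic steroid receptor element GNACANNNTGTNC, the single steroid receptor site AGAACA, which can form one arm of that palindrome, and GCGTG, the core of the element bound by the aryl hydrocarbon receptor (AhR), the receptor for polycyclic aromatic compounds. The palindrome was in 0 of the 12 windows and in 0.39% of all 35116 windows, AGAACA in 3 of 12 and 14.8%, and GCGTG in 4 of 12 and 36.5%. For the pair that moved apart, stretches around 3 of the matches are printed 5′ to 3′, with the match in capitals. For TSC22D3 it is chrX:107776116-107776145, minus strand, with GCGTG 145 bases before the start at 107775988. Another GCGTG of TSC22D3, 26 bases after that start and 176 bases before the start of a second window, is not printed. For FKBP5 the first is chr6:35688943-35689165, minus strand, with GCGTG 216 bases before the inner start at 35688915, and the second is chr6:35728566-35728595, minus strand, with AGAACA at the first base of the outer start at 35728583.
TSC22D3: gtgcgagcggcaGCGTGgatgccagggcac
FKBP5, inner start: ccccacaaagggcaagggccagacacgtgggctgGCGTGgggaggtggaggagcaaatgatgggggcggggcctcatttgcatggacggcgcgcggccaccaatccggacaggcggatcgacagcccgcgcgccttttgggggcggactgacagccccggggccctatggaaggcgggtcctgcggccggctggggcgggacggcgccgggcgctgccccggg
FKBP5, outer start: caccactaccccAGAACAaactcctacctc

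Gene counts do not say which start was used, and a letter match is a description of these windows only. The palindrome pattern is strict: it misses the androgen response element in the KLK3 window described below. Elements outside the windows were not searched.

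ZBTB16 encodes PLZF, a zinc finger repressor induced by glucocorticoids and progestins (ENSG00000109906, chromosome 11, 114059593 to 114250676, plus strand). It had 2.44, 2.02 and 3.07 CPM in controls and 1.06, 1.26 and 0.749 in exposed cells. Every exposed library lay below every control, on 70 to 112 counts per control and 27 to 39 per exposed library. The log2 fold change was -1.30 ± 0.28 (SE; edgeR adjusted p = 2.8e-04), or 2.46-fold lower, from 2.51 ± 0.532 to 1.02 ± 0.258 CPM (n = 3 per group).

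SGK1 and SGK3 are related kinases of the AKT type that act downstream of PI3K. SGK1 is named for its induction by serum and glucocorticoids, while SGK3 carries a phospholipid-binding PX domain that places it on endosomes. SGK3 (ENSG00000104205, chromosome 8, 66667596 to 66862022, plus strand) had 38.1, 32.6 and 38.0 CPM in controls and 15.4, 15.9 and 17.8 in exposed cells. The lowest control was well above the highest exposed library. The fall from 36.2 ± 3.12 to 16.4 ± 1.28 CPM (n = 3 per group) is a log2 fold change of -1.14 ± 0.10 (SE; edgeR adjusted p = 5.2e-11), or 2.21-fold. The outer end of SGK3 overlaps C8orf44 on the same strand, and the rule by which the authors counted shared reads is not stated in any source used here. C8orf44 stood at 4.80 ± 0.957 and 4.60 ± 0.463 CPM (n = 3 per group), with a log2 fold change of -0.06 ± 0.18 (SE; edgeR adjusted p = 0.80).

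SGK1 was almost silent. Controls had 20, 20 and 2 counts and exposed libraries 10, 6 and 6, below the filter, so the gene was not tested. Control replicate 3, at 0.0549 CPM, fell below all exposed libraries (0.166 to 0.294 CPM), whereas the other controls, at 0.536 and 0.576 CPM, were above them. Per base of gene length SGK1 was at 0.00913, 0.0114 and 0.000937 of the SGK3 level in controls and at 0.0124, 0.00789 and 0.00605 in exposed cells. The log2 ratio of SGK1 to SGK3 was -7.76 ± 1.997 in controls and -6.90 ± 0.52 in exposed cells (n = 3 per group; exact two-sided permutation p = 0.80). The mean difference of 0.86 turned to -0.28 without control replicate 3, so at this depth no direction could be given for the pair.

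TMPRSS2 encodes a serine protease of the cell surface that androgens induce in prostate epithelium (ENSG00000184012, chromosome 21, 41464551 to 41531116, minus strand). Controls had 16.4, 16.6 and 13.9 CPM and exposed libraries 27.1, 27.8 and 22.1. The lowest exposed library exceeded the highest control. The level rose from 15.6 ± 1.53 to 25.7 ± 3.12 CPM (n = 3 per group), a log2 fold change of 0.71 ± 0.11 (SE; edgeR adjusted p = 2.9e-06), or 1.64-fold.

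STEAP4 encodes an androgen-responsive metalloreductase of iron and copper (ENSG00000127954, chromosome 7, 88270892 to 88306891, minus strand). Controls had 32, 20 and 15 counts, or 0.858, 0.576 and 0.412 CPM, and exposed libraries had 8, 6 and 13 counts, or 0.236, 0.194 and 0.361 CPM. The ranges did not overlap, but the gap between 0.412 and 0.361 CPM is narrow. STEAP4 did not pass (log2 fold change -1.20 ± 0.50, SE; edgeR adjusted p = 0.051). It entered the test through its control libraries. The call sat on the threshold: the adjusted p was 0.0454 without control replicate 3, 0.0496 without exposed replicate 3 and 0.273 without control replicate 1, with a range over the alternatives tried of 0.0421 to 0.273.

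KLK3 encodes prostate-specific antigen, the best known androgen-induced protein (ENSG00000142515, chromosome 19, 50854915 to 50860764, plus strand). It had 0 counts in all 6 libraries, which allows up to 3 counts per library, or 0.0804 to 0.0969 CPM (counting error only). Its promoter holds AGAACA 170 bases before the start, inside the proximal androgen response element known from prostate cells, and the 250 bases at chr19:50854665-50854914, plus strand, are shown with that match in capitals.
KLK3: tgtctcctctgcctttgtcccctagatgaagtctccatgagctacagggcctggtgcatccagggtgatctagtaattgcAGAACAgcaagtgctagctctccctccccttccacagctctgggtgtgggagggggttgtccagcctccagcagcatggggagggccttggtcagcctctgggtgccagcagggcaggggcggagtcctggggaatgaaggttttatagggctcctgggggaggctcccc

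TAT encodes tyrosine aminotransferase, a liver enzyme and a classic glucocorticoid target (ENSG00000198650, chromosome 16, 71565660 to 71577130, minus strand). It had 1, 3 and 2 counts in controls and 0, 5 and 3 in exposed libraries. Both groups lay around the limit that a count of 0 allows, and no fold was computed. Tissue markers give the setting of these 2 near-silent genes. The liver marker ALB had no count in any library, and the 5 liver markers summed to 0.858 to 0.906 CPM in controls and 1.21 to 1.66 in exposed cells, most of it HPD. The 4 prostate markers KLK2, FOLH1, ACPP and MSMB summed to 3.13 to 3.29 CPM in controls and 1.44 to 2.80 in exposed cells.

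OTULINL (FAM105A) encodes an OTU-domain protein related to the deubiquitinase OTULIN (ENSG00000145569, chromosome 5, 14581775 to 14615007, plus strand). It had 2.63, 2.28 and 2.25 CPM in controls and 1.35, 2.20 and 2.55 in exposed cells. The ranges overlapped, with exposed replicate 1 alone far below the rest. The log2 fold change was -0.23 ± 0.25 (SE; edgeR adjusted p = 0.48), and without exposed replicate 1 it was 0.0017.

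Scaled for gene length, the levels from FKBP5 to TAT covered more than 3 orders of magnitude. In controls FKBP5 led at 17.7 ± 1.84 CPM per kb, followed by TSC22D3 at 10.7 ± 0.683, SGK3 at 5.59 ± 0.482, TMPRSS2 at 2.56 ± 0.250, OTULINL at 0.585 ± 0.0517 and ZBTB16 at 0.394 ± 0.0835 (n = 3 per group). No neighbours in that upper part of the order overlapped between libraries. STEAP4 at 0.0547 ± 0.0201 and SGK1 at 0.0389 ± 0.0290 CPM per kb overlapped each other, SGK1 overlapped TAT at 0.0104 ± 0.00551, and KLK3 was at 0. In exposed cells 2 pairs of neighbours had changed places. TSC22D3 at 27.2 ± 1.53 CPM per kb stood above FKBP5 at 12.1 ± 0.317, and TMPRSS2 at 4.19 ± 0.510 stood above SGK3 at 2.53 ± 0.198, with no overlap in either pair.

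**Figure D2:**
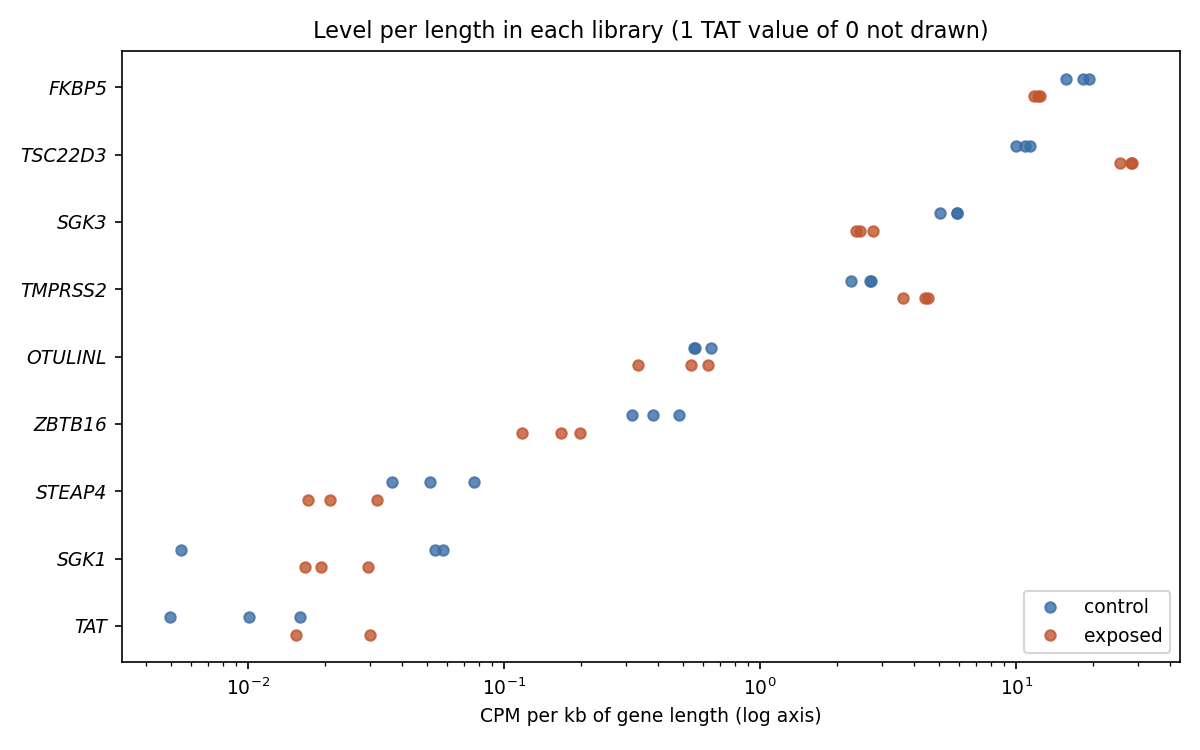
Level of 9 of the 10 genes in CPM per kb of gene length (log axis), 1 dot per library, control in blue and exposed in orange, ordered by the control mean; KLK3 had no count, and 1 TAT value of 0 is not drawn. FKBP5 leads the controls at 17.7 CPM per kb and TSC22D3 leads the exposed libraries at 27.2, while STEAP4, SGK1 and TAT lie below 0.1 throughout.

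The receptors themselves moved in different directions. PGR, a defining transcript of T47D, fell from 821 ± 90.8 to 299 ± 17.1 CPM (n = 3 per group). NR3C2 rose from 1.78 ± 0.206 to 3.79 ± 0.564 CPM (n = 3 per group; log2 fold change 1.08 ± 0.21, edgeR adjusted p = 1.2e-04). NR3C1 had 7.37, 6.22 and 7.35 CPM in controls and 7.24, 10.6 and 7.24 in exposed cells and did not pass (0.26 ± 0.15; edgeR adjusted p = 0.18). The groups overlapped for NR3C1, with exposed replicate 2 the highest, and without that library the log2 fold change was 0.06. HSD11B2, which inactivates cortisol, did not pass, with 5.31 ± 0.973 CPM in controls and 5.17 ± 0.677 in exposed cells (n = 3 per group; adjusted p = 0.88), and HSD11B1, which regenerates it, had no count. Thus 1 of these 4 tested genes rose and 1 fell, beside 21.8% of all tested genes called higher and 22.1% called lower.

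**Figure D3:**
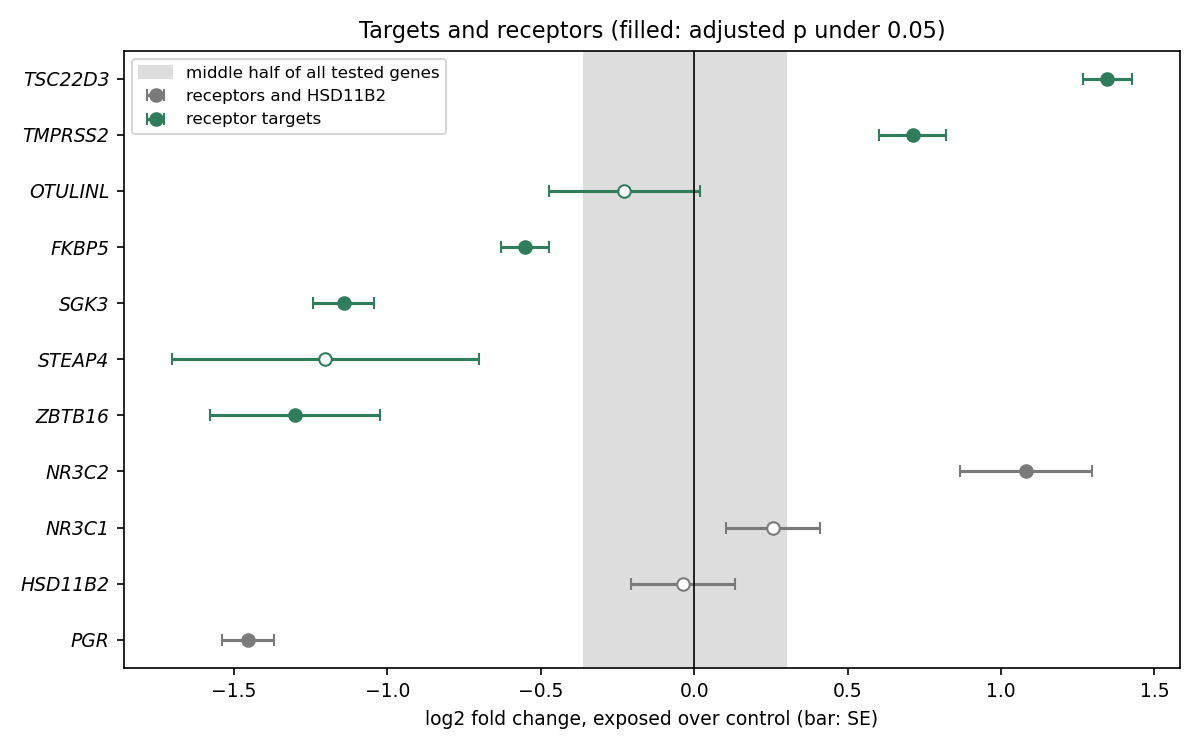
Log2 fold change, exposed over control, of the 7 tested targets (green) and of 3 receptors with HSD11B2 (grey); bars are SE, filled dots passed at an adjusted p under 0.05, and the grey band spans the 25th to the 75th percentile of all tested genes, -0.36 to 0.30. TSC22D3 and TMPRSS2 lie to the right of the band with NR3C2, and FKBP5, SGK3, STEAP4 and ZBTB16 to its left with PGR; STEAP4 did not pass.

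Of 14 receptor chaperones and coregulators, 5 fell and 0 rose in edgeR, beside 22.1% of all tested genes called lower and 21.8% called higher. At an unadjusted p under 0.05, 1 was higher in edgeR, and 2 rose with DESeq2 and 0 with limma-voom. The chaperone HSP90AA1 fell from 1043 ± 73.0 to 743 ± 26.9 CPM (n = 3 per group), and FKBP4, the FKBP5 relative that favours receptor activity, from 641 ± 33.0 to 533 ± 31.6. The more abundant HSP90AB1 did not pass, at 1732 ± 34.3 CPM in controls and 1862 ± 71.1 in exposed cells (log2 fold change 0.10 ± 0.08, SE; edgeR adjusted p = 0.31). Nor did HSPA8 and PTGES3, both at a log2 fold change of 0.15. FOXA1, the pioneer factor that opens chromatin for these receptors, had a log2 fold change of -0.27 ± 0.07 (SE), HSP90's adaptor STIP1 -0.26 ± 0.07 and the cyclophilin PPID -0.34 ± 0.12. The fall of FKBP4 did not pass without exposed replicate 3 (log2 fold change -0.24, adjusted p = 0.0593, range over the alternatives 0.00209 to 0.0593), and that of PPID did not pass without control replicate 3, exposed replicate 1 or exposed replicate 2 (adjusted p = 0.214, 0.104 and 0.0516).

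Further targets were taken from lists that exclude the 10 genes and were chosen with earlier results of these data known. Their counts, like those of the relatives described last, stand beside 21.8% of all tested genes called higher, 22.1% called lower and 43.9% called in either direction. Of 15 other glucocorticoid receptor targets, 8 rose and 2 fell, with a median log2 fold change of 0.44 (0.30 without control replicate 3). MT2A, a metallothionein that metals also induce, went from 252 ± 35.4 to 968 ± 48.5 CPM (n = 3 per group). The MAPK phosphatase DUSP1 was at a log2 fold change of 1.50 ± 0.12, the clock gene PER1 at 1.28 ± 0.09 and the sodium channel subunit SCNN1A at 0.67 ± 0.08 (SE). GLUL, which makes glutamine, fell by 0.80 ± 0.08 on the log2 scale, and RGS2, a G-protein regulator, was at -1.38.

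All 9 tested genes among 10 other progesterone receptor targets passed, 4 higher and 5 lower, with a median of -0.26 (-0.16 without exposed replicate 3). The number passing was 8 in each fit that left out 1 library, except that without control replicate 3, where it was 9. The insulin receptor substrate IRS2 led the rises at a log2 fold change of 2.34 ± 0.13, with S100P at 1.11 ± 0.08 and KLF4 at 0.86 ± 0.10 (SE). EHF, an epithelial ETS factor, was at -1.15 ± 0.08 and the EGF-family ligand AREG at -0.73 ± 0.10. TNFSF11, the paracrine progestin target RANKL, had no count.

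Of 12 other androgen targets 10 were tested, of which 5 fell and 2 rose, with a median log2 fold change of -0.46 (-0.24 without exposed replicate 1). PMEPA1, which also answers TGF-beta, fell from 44.2 ± 3.92 to 13.9 ± 0.346 CPM, and PIP, a secreted apocrine protein, from 188 ± 8.55 to 70.9 ± 12.7 (n = 3 per group). The kinase CAMKK2 was at -0.37 ± 0.08 (SE). KLK4, a kallikrein related to KLK3, had 22, 24 and 25 counts in controls and 5, 8 and 9 in exposed libraries, a log2 fold change of -1.57 ± 0.50 (SE; edgeR adjusted p = 0.011). Like STEAP4, it entered the test through its control libraries, and it is part of the list's median. The other genes of this list that fell number 4. Without exposed replicate 1 KLK4 no longer passed (log2 fold change -1.35, adjusted p = 0.0565, range over the alternatives 0.00826 to 0.0565). The elongation factor ELL2 rose, like TMPRSS2, at 1.07 ± 0.12, and the acyl-CoA ligase ACSL3 was the other gene that rose, at 0.26. Without exposed replicate 3 ACSL3 no longer passed (log2 fold change 0.23, adjusted p = 0.0558, range over the alternatives 0.00512 to 0.0558), leaving 1 gene of this list that rose.

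**Figure D4:**
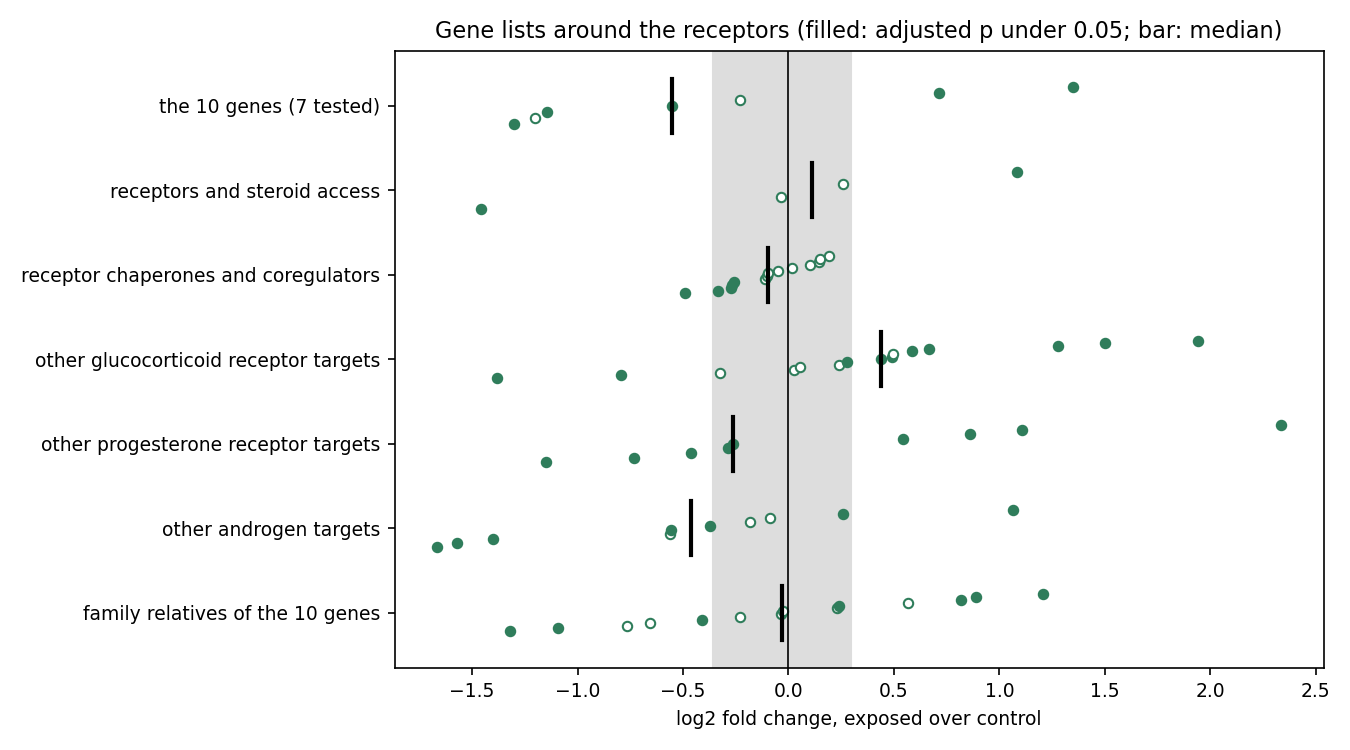
Log2 fold change, exposed over control, of each tested gene (dots) in the 10 targets and in 6 lists around the receptors; filled dots passed at an adjusted p under 0.05, black bars are medians, and the grey band spans -0.36 to 0.30, the 25th to the 75th percentile of all tested genes. The median of the other glucocorticoid receptor targets is at 0.44 and that of the other androgen targets at -0.46, and each target list has members on both sides of 0.

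Relatives of the 10 genes were counted in the same way, and 4 of 14 tested rose and 3 fell. All 3 measured relatives of TSC22D3 rose with it: TSC22D2 at a log2 fold change of 1.21 ± 0.10, TSC22D1 at 0.82 ± 0.08 and TSC22D4 at 0.24 ± 0.08 (SE). The call of TSC22D4 ended without control replicate 3 or exposed replicate 1 (edgeR adjusted p = 0.128 and 0.0807, range over the alternatives 0.00254 to 0.128). ZBTB7B, a relative of ZBTB16, rose by 0.89 ± 0.08 on the log2 scale, opposite to ZBTB16. STEAP3, the endosomal iron reductase, fell from 30.8 ± 0.936 to 14.4 ± 2.37 CPM (n = 3 per group). KLK10, a relative of KLK3, was at -0.41 ± 0.13 (SE), a call that ended without exposed replicate 2 (log2 fold change -0.31, edgeR adjusted p = 0.0679, range over the alternatives 0.00267 to 0.0679). The other relative that fell was TMPRSS4, opposite to TMPRSS2, at -1.32 ± 0.43 (SE; edgeR adjusted p = 0.012). The relatives that fell numbered 2 to 4 in the fits that left out 1 library. The kinase SGK2 did not pass, with 0.300 ± 0.186 CPM in controls and 0.444 ± 0.244 in exposed cells (n = 3 per group). Nor did ZBTB7A, STEAP1, STEAP2, OTULIN, TMPRSS3 or KLK11.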

How the data were processed

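RNA of 6 T47D libraries (NEBNext Ultra kit, Illumina NovaSeq, per the labels' protocols) was quantified by the authors, who deposited raw counts of reads per gene. GRCh38 is the build in the submitters' processing notes. For the aligner, counter, annotation release and strand setting, sources used here give no statement. Gene lengths are those of the table. The fit used edgeR 4.0.16 under R 4.3.3, with filterByExpr defaults (minimum count 10, minimum total 15), TMM factors, robust quasi-likelihood fit over 17337 genes, Benjamini-Hochberg adjustment, threshold 0.05, no minimum fold. The SE is the log2 fold change divided by the square root of the F statistic. The fit was tested on simulated data. Pairs of libraries within a group differed by more than sampling noise (chi-square per degree of freedom 7.11 to 14.9). Named are the 10 genes, the genes of the receptor list and up to 5 genes per other list with the smallest adjusted p. Others named (HSP90AB1, HSPA8, PTGES3, ACSL3, RGS2, TSC22D4, TMPRSS4, SGK2 and the other relatives that did not pass, TNFSF11, C8orf44, markers) were chosen after their values were seen. A few genes of the receptor, androgen target and prostate marker lists are not reported here and enter no count, median or figure of those lists. The genes and lists were chosen with earlier results of these data known. Alternatives were DESeq2 1.42.0, limma-voom (limma 3.58.1), DESeq2-type size factors, no or a stricter filter (at least 1 CPM in 3 libraries), the replicate number as a block, protein-coding genes alone and leaving out each library. Promoter sequences are RefSeq's.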

Additional observations from a re-analysis of the deposited data

How the results depend on the processing

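The rises of TSC22D3 and TMPRSS2 and the falls of FKBP5, SGK3 and ZBTB16 kept their direction and passed under all 13 alternatives, with log2 fold changes of 1.30 to 1.40, 0.63 to 0.83, -0.63 to -0.49, -1.21 to -1.09 and -1.47 to -1.10. The call of STEAP4 was less settled, while OTULINL passed under none of the alternatives (adjusted p from 0.255 to 0.997). STEAP4, absent from the fit with the stricter filter, passed among protein-coding genes alone (-1.21, adjusted p = 0.0421), and without 1 library ranged from -1.48 to -0.88. OTULINL ranged from -0.41 to 0.0017 without 1 library, and the log2 ratio difference of SGK1 to SGK3 from -0.28 to 1.52. Without 1 library HSD11B2 ranged from -0.16 to 0.11, turning positive without control replicate 2 or exposed replicate 2 (0.07), and the median of the relatives of the 10 genes ranged from -0.089 to 0.054, turning positive without exposed replicate 1. The number of receptor chaperones and coregulators that rose, 0 in the test reported, was 1 with DESeq2-type size factors, 2 with DESeq2 and 0 to 1 without 1 library. Other androgen targets that rose numbered 1 to 3 without 1 library. The median of that list was -0.33 with no low-count filter and -0.59 to -0.24 without 1 library. The replicate numbers are shared by both groups, but the labels state no pairing. Deviations of same-numbered libraries correlated at -0.128, -0.122 and 0.005 across genes, and those of control replicate 2 and exposed replicate 1 at 0.207. With 3 libraries per group these values cannot settle whether libraries were paired, and the main fit used no pairing. With the replicate number as a block, the same number of the 10 genes passed (5). The difference of 1.89 in the log2 ratio of TSC22D3 to FKBP5 cannot change there, since blocking leaves the group means of this balanced design as they are. The p of its exact two-sided test ran from 0.10 to 0.25 over the alternatives. Low counts limit SGK1, TAT, STEAP4 and KLK3.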
